A study of Mus musculus with 20 samples.

Results

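The synaptic vesicle and SNARE genes described here were all genes on the array whose name belongs to 1 of 9 families, which were the synaptotagmins (Syt), syntaxins (Stx), syntaxin-binding proteins (Stxbp), synaptosome-associated proteins (Snap), vesicle-associated membrane proteins (Vamp), synapsins (Syn), complexins (Cplx), Rab3 proteins and synaptic vesicle glycoproteins 2 (Sv2). They were chosen by name alone, and comprised 65 of 30222 gene names, with 108 of 39429 probes and 117 of 43020 spots. Of the 65 genes, 47 had a probe bright and uniform enough in every sample to be tested, among 10355 genes tested in all. Snap91, which encodes the clathrin assembly protein AP180, entered by its name and is no SNARE.

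Expression was measured in cultures of mouse dorsal root ganglion (DRG) neurons that were left unstimulated or were driven to fire action potentials with 1 of 2 patterns, to compare the genes that different patterns regulate over time. Total RNA from 20 samples was hybridized to 10 two-colour arrays, with 2 samples of the same condition on each array, 1 in Cy3 and 1 in Cy5. All groups came from embryos of NIH Swiss mice at embryonic day 13.5, were grown with nerve growth factor and were treated with an inhibitor of non-neuronal proliferation. Each of the 5 conditions had 4 samples on 2 arrays. Unstimulated cultures were on arrays 1 and 2, and the 18/1 pattern, in which each burst held 18 action potentials and 1 burst came per min, lasted 2 hr (arrays 3 and 4) or 5 hr (arrays 5 and 6). The 90/5 pattern, in which each burst held 90 action potentials and 1 burst came per 5 min, lasted 2 hr (arrays 7 and 8) or 5 hr (arrays 9 and 10), so both patterns delivered the same number of action potentials over time. By the methods, RNA of 5 cultures was pooled for a condition, and unstimulated cultures had electrodes fitted without current. The labels call the cells DRG neurons while the growth protocol names spinal cords as the source of the cells.

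SNARE proteins drive the fusion of membranes. A SNARE on a vesicle (a Vamp) zips together with SNAREs on the target membrane (a syntaxin and a Snap protein), and at the nerve terminal synaptotagmins sense calcium, complexins hold and release the assembled complex, and syntaxin-binding proteins of the Munc18 group guide its assembly. Synapsins tether vesicles in a reserve, Rab3 proteins bring them to the release site and Sv2 proteins sit in their membrane, while other members of the same families serve transport between the internal membranes of every cell. Sensory neurons of the DRG use this machinery at their central terminals and also for peptide release and membrane supply along axons.

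The arrays lay on 3 slides, and slide 2 stood apart from the rest. Slide 1 held the unstimulated and 18/1 2 hr samples, slide 2 the 18/1 5 hr and 90/5 2 hr samples, and slide 3 the 90/5 5 hr samples. Signal over background of the median spot ranged from 2.27 to 2.94 on slide 1, from 3.64 to 10.4 on slide 2 and from 2.66 to 4.91 on slide 3. Of the 117 spots of the genes described, up to 34 in a sample were marked as non-uniform and up to 18 as saturated on slide 2, against 0 of either kind on slides 1 and 3. Condition and slide cannot be told apart except where 18/1 2 hr is set against unstimulated cultures (both on slide 1) or 90/5 2 hr against 18/1 5 hr (both on slide 2). Of the markers of sensory neurons, 16 of 19 were tested, and their mean log2 signal lay between 14.62 and 15.17 in all samples. Single markers differed from unstimulated samples by -1.83 to 1.08 at 18/1 5 hr. Of the 16, 1 was called higher there and 1 lower (12.5%, against 44.6% of all genes). None of 9 markers of spinal cord neurons was tested, since none passed the spot filter. Of 9 fibroblast markers, 5 were tested, and their mean was 12.73 to 13.87 in unstimulated samples and 14.12 to 14.49 at 18/1 5 hr. Of these 5, 1 was called higher there, and 3 were called lower in 90/5 than in 18/1 at 5 hr (against 15.8% of all genes). The 1 tested of 4 endothelial markers was called lower at 18/1 5 hr (difference -1.36). The part of such cells in the results was not tested. Nr4a1, an immediate early gene, was higher than in unstimulated samples by 4.43 to 5.50 on the log2 scale in the stimulated conditions (limma, adjusted p of 1.066e-08 to 4.496e-07). Of 6 genes listed to check the stimulation 3 were tested, and 2 were called higher under 18/1 at either time and 3 under 90/5, with Egr1 the 1 not called under 18/1 (2.70 at 2 hr and 0.99 at 5 hr).

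A gene is described as called where limma gave an adjusted p (Benjamini-Hochberg, over all genes tested in the comparison) under 0.05, and values are normalised log2 signals unless stated otherwise. A difference of 1 on this scale is a 2-fold change. Lists of 4 values run in the order of the arrays of the condition, Cy3 before Cy5, and n is 4 samples on 2 arrays in every group. The methods describe the 2 RNAs of an array as biological replicas and the labels do not say from which cultures they came, so the p-values measure the spread between these samples, which may in part be technical. In bulk RNA, fewer cells of a type and less RNA per cell cannot be told apart.

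After 18/1 stimulation for 2 hr, 0 of the 47 genes were called against unstimulated samples, where 0.0193% of all 10355 genes were called, and 0 of the 47 had an unadjusted p under 0.05, against 0.898% of all genes. After 18/1 for 5 hr, 18 of 47 genes (38.3%) were called, 6 higher and 12 lower, where 44.6% of all genes were called, 14.9% higher and 29.7% lower. With samples centred on their medians alone, 18 were again called there, and of these only Stx18 and Syt6 were higher. After 90/5 for 2 hr, 1 gene was called, lower, where 7.03% of all genes were called, and 8 had an unadjusted p under 0.05, against 23% of all genes. After 90/5 for 5 hr, 0 genes were called, where 0.0676% of all genes were called, and 2 had an unadjusted p under 0.05, against 3.69% of all genes. The share of vesicle and SNARE genes called was thus near or below that of all genes in each condition, and the large set of calls fell in 18/1 at 5 hr. Samples did not overlap those of unstimulated cultures for 1 of the 47 genes after 18/1 for 2 hr (6.14% of all genes), 22 after 18/1 for 5 hr (53.8%), 7 after 90/5 for 2 hr (26.4%) and 2 after 90/5 for 5 hr (11.7%). The median difference of the 47 genes from unstimulated samples at 18/1 5 hr was 0.05, against -0.23 over all genes. Without array 1 or array 2 of the unstimulated samples, 8 and 7 of the 18/1 5 hr calls were made in place of 18, and without array 7 there were 13 calls in place of 1 at 90/5 2 hr. A fit without slide 2 called 4 genes at 90/5 5 hr in place of 0, Syt5 higher and Snap23, Stxbp5 and Syt6 lower.

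**Figure D1:**
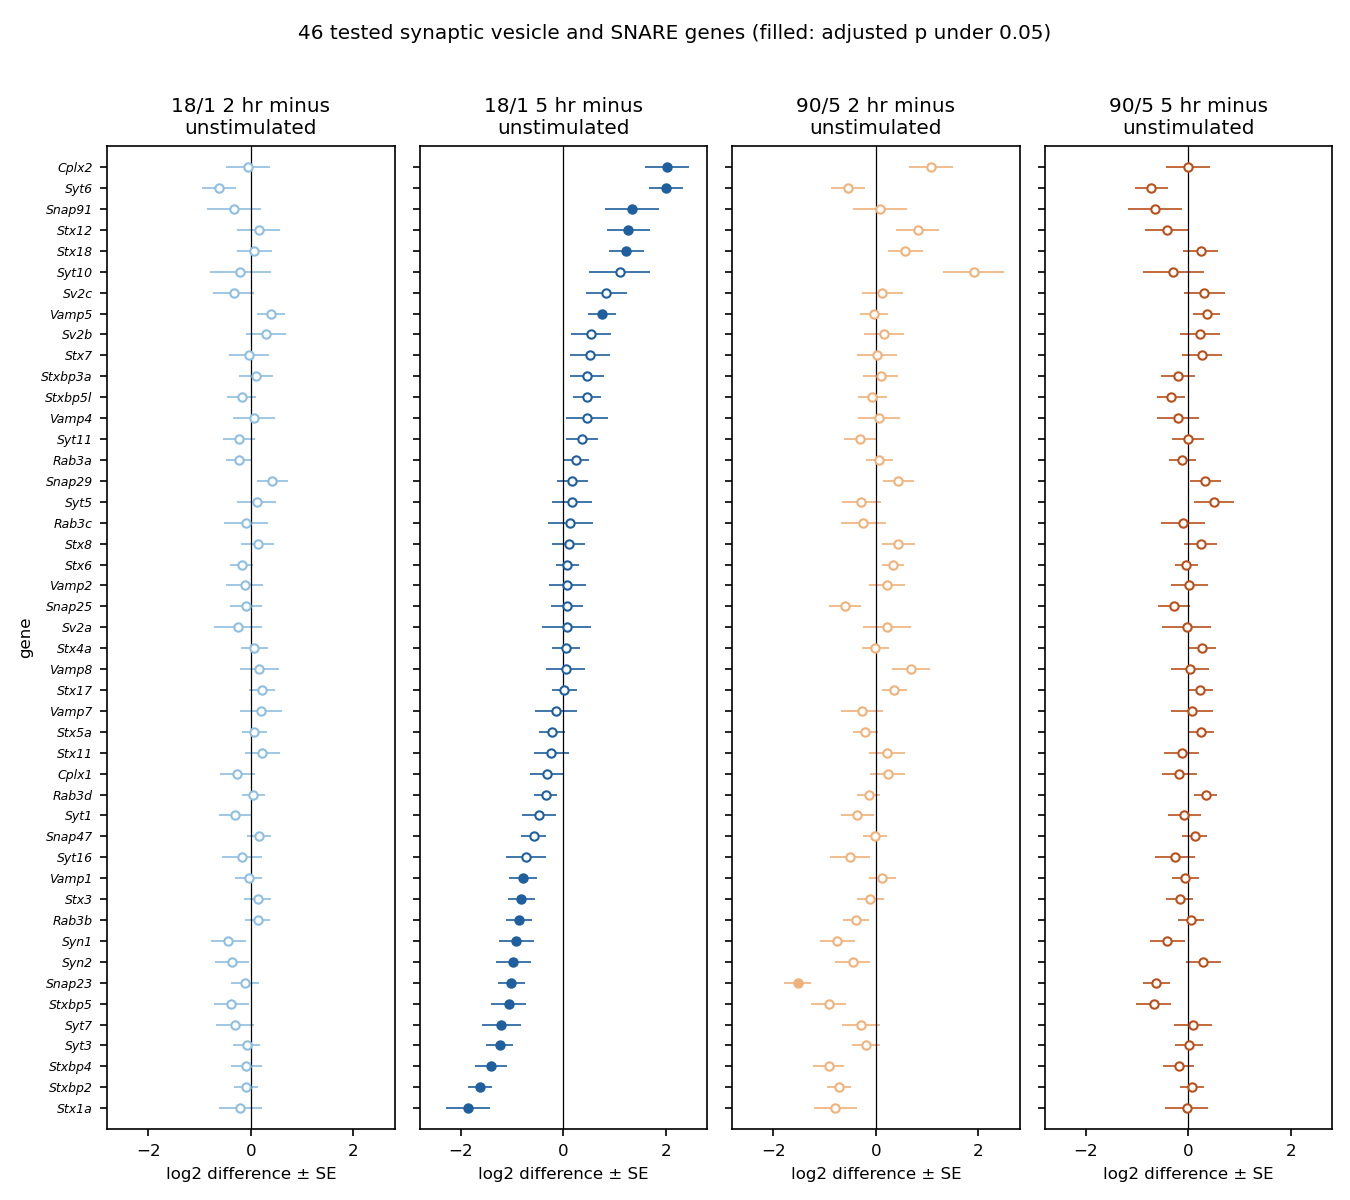
Difference in log2 signal from unstimulated samples (horizontal axis, ± SE, n = 4 samples on 2 arrays per condition) for 46 of the 47 tested genes (vertical axis, in the order of their difference at 18/1 5 hr) in the 4 stimulated conditions. Filled circles mark an adjusted p under 0.05, which 18 genes had at 18/1 5 hr, 1 at 90/5 2 hr and 0 in the other conditions.

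Of the plasma membrane SNAREs Stx1a and Snap25, which act in transmitter release, Stx1a was called at 18/1 5 hr, and the difference between the 2 genes was not tested. Stx1a read 12.52, 12.09, 12.63 and 11.88 in the unstimulated samples, 12.02, 11.96, 12.55 and 11.77 after 18/1 for 2 hr, 10.78, 10.87, 9.9987 and 10.03 after 18/1 for 5 hr, 11.87, 12.67, 10.72 and 10.7045 after 90/5 for 2 hr, and 12.33, 12.00, 12.57 and 12.10 after 90/5 for 5 hr, and Stx1a encodes syntaxin 1A, the syntaxin of the neuronal release complex. All 4 samples at 18/1 5 hr lay below every unstimulated, 18/1 2 hr and 90/5 5 hr sample, while at 90/5 2 hr array 7 was at the unstimulated level and array 8 near the 18/1 5 hr level. The difference from unstimulated samples was -1.86 (SE 0.42, adjusted p = 0.001467) at 18/1 5 hr and -0.03 at 90/5 5 hr, and the difference at 18/1 5 hr was called without each sample and each array in turn, as were those of Stxbp2, Stxbp4, Syt3, Snap23, Syt6 and Cplx2. Snap25 stood at 14.40, 14.81, 14.46 and 14.78 in the unstimulated samples, 14.15, 14.83, 14.43 and 14.69 after 18/1 for 2 hr, 14.81, 14.77, 14.63 and 14.53 after 18/1 for 5 hr, 13.25, 13.68, 14.38 and 14.73 after 90/5 for 2 hr, and 14.23, 14.83, 13.66 and 14.60 after 90/5 for 5 hr, for the SNARE that binds syntaxin 1 at the plasma membrane. The unstimulated and 18/1 5 hr samples of Snap25 overlapped, 2 of its 4 spots at 18/1 5 hr were saturated, and the measured difference there was 0.07 (SE 0.31), with a 95% interval from -0.58 to 0.72. Array 7 gave the lowest of the 90/5 2 hr values.

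Of the vesicle SNAREs Vamp1 and Vamp2, the synaptobrevins, Vamp1 was called at 18/1 5 hr, and the difference between the 2 genes was not tested. Vamp1 gave 14.10, 14.52, 13.99 and 14.18 in the unstimulated samples, 13.80, 14.38, 14.10 and 14.36 after 18/1 for 2 hr, 13.40, 13.89, 12.75 and 13.60 after 18/1 for 5 hr, 14.14, 14.86, 13.70 and 14.59 after 90/5 for 2 hr, and 14.05, 14.33, 13.57 and 14.59 after 90/5 for 5 hr. The 18/1 5 hr samples of Vamp1 lay below all unstimulated samples, by 0.79 in the mean (difference -0.79, SE 0.26, adjusted p = 0.02004), and the call was lost without array 1, 2 or 6 (-0.56 to -0.90). Vamp2 was at 15.21, 15.25, 15.25 and 15.11 in the unstimulated samples, 14.55, 15.34, 15.55 and 14.88 after 18/1 for 2 hr, 15.79, 15.57, 15.06 and 14.68 after 18/1 for 5 hr, 15.07, 15.66, 15.64 and 15.31 after 90/5 for 2 hr, and 15.02, 15.13, 15.68 and 15.05 after 90/5 for 5 hr. Groups of Vamp2 overlapped in all conditions, 3 of its 4 spots at 18/1 5 hr were saturated, and the difference was 0.07 (95% interval -0.67 to 0.82).

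Stxbp2 was the syntaxin-binding protein of the Munc18 group that was called at 18/1 5 hr. Stxbp2 measured 8.14, 8.29, 8.06 and 8.49 in the unstimulated samples, 8.10, 8.17, 8.01 and 8.28 after 18/1 for 2 hr, 6.56, 6.63, 6.65 and 6.62 after 18/1 for 5 hr, 7.96, 7.83, 7.05 and 7.23 after 90/5 for 2 hr, and 8.25, 8.23, 8.39 and 8.39 after 90/5 for 5 hr, for Munc18-2, which serves granule release in mast cells and other secretory cells. At 18/1 5 hr 0 of the 4 samples were well above background, so the level is a bound. With each sample's lowest signal well above background as the floor, it was 2.88-fold lower than in unstimulated samples (adjusted p = 2.555e-05, measured difference -1.63). That fold holds only for this probe and normalization. The 90/5 2 hr samples lay between, with array 8 lower than array 7, and the 90/5 5 hr samples were at the unstimulated level. With the spot filter applied in at least 1 condition only, with no spot filter or without the rule on non-uniform spots, another probe stood for Stxbp2, and its difference of -0.61 was not called. Stxbp3a, the partner of syntaxin 4, differed by 0.46 at 18/1 5 hr and was not called.

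Of the 3 tested syntaxin-binding proteins outside the Munc18 group, 2 were called lower at 18/1 5 hr, where 29.7% of all genes were. Stxbp4 read 8.71, 8.75, 8.59 and 8.53 in the unstimulated samples, 8.54, 8.78, 8.54 and 8.35 after 18/1 for 2 hr, 6.75, 6.60, 7.79 and 7.80 after 18/1 for 5 hr, 7.95, 8.32, 7.49 and 7.14 after 90/5 for 2 hr, and 8.38, 8.43, 8.37 and 8.63 after 90/5 for 5 hr, for Synip, a binding partner of syntaxin 4. All 18/1 5 hr samples of Stxbp4 were below all unstimulated samples (difference -1.41, SE 0.31, adjusted p = 0.001066), array 5 lay lower than array 6, and 2 of the 4 samples were well above background. The difference was -0.85 without array 5 and -1.97 without array 6, and it was called in both. Stxbp5, which encodes tomosyn, an inhibitor of SNARE assembly, was at 8.66 to 9.16 in unstimulated samples and at 6.99 to 8.48 at 18/1 5 hr (difference -1.06, SE 0.34, adjusted p = 0.0151), and was not called without array 1, 2 or 5 (-0.49 to -1.13). Its relative Stxbp5l differed by 0.46 and was not called.

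Synapsins tether vesicles to each other and to the cytoskeleton. Both tested members were called lower at 18/1 5 hr, where 29.7% of all genes were. Syn1 stood at 14.83, 15.13, 14.97 and 14.90 in the unstimulated samples, 13.96, 14.44, 15.18 and 14.51 after 18/1 for 2 hr, 13.72, 14.18, 13.95 and 14.31 after 18/1 for 5 hr, 14.14, 14.87, 13.74 and 14.08 after 90/5 for 2 hr, and 14.10, 14.59, 14.92 and 14.59 after 90/5 for 5 hr. At 18/1 5 hr the 4 samples of Syn1 lay below every unstimulated sample and overlapped the 18/1 2 hr, 90/5 2 hr and 90/5 5 hr samples. The difference from unstimulated samples was -0.92 (SE 0.34, adjusted p = 0.03388), a call lost without array 1, 2 or 5, without the Cy5 sample of array 1 or the Cy3 sample of array 2 or 5 (-0.83 to -0.94). The Syn1 call was also lost with either wider spot filter and with the GC trend removed (-0.53). Syn2 gave 10.74, 10.49, 10.61 and 10.57 in the unstimulated samples, 9.89, 10.08, 10.71 and 10.26 after 18/1 for 2 hr, 9.76, 10.06, 9.18 and 9.48 after 18/1 for 5 hr, 10.34, 11.00, 9.66 and 9.58 after 90/5 for 2 hr, and 10.53, 11.18, 10.78 and 11.06 after 90/5 for 5 hr. The 18/1 5 hr samples of Syn2 lay below all unstimulated and all 90/5 5 hr samples, by a difference of -0.98 (SE 0.34, adjusted p = 0.02356) from the former, lost without array 1, 2 or 6 (-0.69 to -0.99). With the spot filter applied in at least 1 condition, with no spot filter or without the rule on non-uniform spots, the value for Syn2 was -0.31 and not called, and the call was also lost with means of arrays (-0.98). Syn3 was at 9.12, 9.17, 9.12 and 9.07 in the unstimulated samples, 8.52, 8.69, 9.06 and 8.61 after 18/1 for 2 hr, 6.50, 6.49, 6.74 and 6.66 after 18/1 for 5 hr, 8.46, 9.50, 7.55 and 7.48 after 90/5 for 2 hr, and 8.81, 9.22, 8.93 and 9.40 after 90/5 for 5 hr. Syn3 did not pass the spot filter in all samples and was fitted with the filter applied in at least 1 condition, where 1 of its 4 samples at 18/1 5 hr was well above background and its measured difference was -2.52 (adjusted p = 0.0002165), with 37% of 18744 genes called. Syn3 passed that filter through conditions in which it was bright, so that it was low where it failed is part of how it was chosen, and the size of the difference is not settled.

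Of the 4 tested Rab3 genes, 1 was called at 18/1 5 hr, where 44.6% of all genes were. Rab3a measured 15.76, 15.52, 15.56 and 15.40 in the unstimulated samples, 15.18, 15.33, 15.78 and 15.02 after 18/1 for 2 hr, 15.82, 15.60, 16.25 and 15.57 after 18/1 for 5 hr, 15.42, 15.41, 16.01 and 15.67 after 90/5 for 2 hr, and 15.33, 15.39, 15.67 and 15.37 after 90/5 for 5 hr, for the main Rab3 protein of synapses. Rab3c read 15.38, 15.53, 14.98 and 15.60 in the unstimulated samples, 14.85, 15.76, 15.05 and 15.45 after 18/1 for 2 hr, 15.99, 15.76, 15.43 and 14.86 after 18/1 for 5 hr, 14.90, 14.98, 15.47 and 15.16 after 90/5 for 2 hr, and 15.08, 15.81, 14.34 and 15.85 after 90/5 for 5 hr. Rab3a and Rab3c were saturated in 4 of 4 samples at 18/1 5 hr, groups overlapped, and the measured differences of 0.25 and 0.14, which saturation limits, were not called. With samples centred on their medians alone, the direction of Rab3a turned and it was called lower there. Rab3b was the Rab3 gene that was called, at 8.63 to 9.18 in unstimulated samples and 7.60 to 8.50 at 18/1 5 hr (difference -0.86, SE 0.25, adjusted p = 0.008137), a call lost without array 2 (-0.79), and Rab3d, known from exocrine granules, differed by -0.34 and was not called.

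The Sv2 glycoproteins, through which botulinum toxin A enters terminals, were not called in any comparison of the main fit. Sv2a stood at 10.97, 10.68, 11.01 and 10.37 in the unstimulated samples, 10.19, 10.41, 11.13 and 10.28 after 18/1 for 2 hr, 11.48, 11.88, 9.84 and 10.08 after 18/1 for 5 hr, 10.86, 11.94, 10.47 and 10.62 after 90/5 for 2 hr, and 10.80, 10.64, 10.81 and 10.64 after 90/5 for 5 hr. Sv2b gave 12.91, 12.73, 11.76 and 11.72 in the unstimulated samples, 12.53, 12.62, 12.85 and 12.31 after 18/1 for 2 hr, 13.17, 13.52, 12.17 and 12.37 after 18/1 for 5 hr, 12.22, 12.66, 12.44 and 12.38 after 90/5 for 2 hr, and 12.85, 12.48, 11.85 and 12.82 after 90/5 for 5 hr. Array 5 was higher than array 6 at 18/1 5 hr for both genes, and array 1 was higher than array 2 for Sv2b in the unstimulated samples. Sv2c was at 11.77, 12.37, 11.36 and 12.01 in the unstimulated samples, 10.96, 12.09, 11.76 and 11.35 after 18/1 for 2 hr, 12.72, 12.83, 12.56 and 12.74 after 18/1 for 5 hr, 12.06, 12.06, 11.90 and 11.99 after 90/5 for 2 hr, and 11.57, 11.97, 13.03 and 12.16 after 90/5 for 5 hr. All 18/1 5 hr samples of Sv2c were above all unstimulated ones, with a difference of 0.84 (SE 0.40, adjusted p = 0.09334), and a second probe of Sv2c gave -0.59. Sv2c was called higher there with no array block, means of arrays, only the conditions compared or array weights. The methods' t-test with and without Benjamini-Hochberg adjustment also called it higher. Without array 6, Sv2b was called higher there.

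Of 17 synaptotagmins 8 were tested, and at 18/1 5 hr 1 was called higher and 2 lower (37.5%, against 44.6% of all genes), with differences from -1.24 to 2.00. Syt1 measured 12.76, 12.05, 12.33 and 11.88 in the unstimulated samples, 11.89, 12.04, 12.45 and 11.42 after 18/1 for 2 hr, 11.99, 12.05, 11.60 and 11.46 after 18/1 for 5 hr, 11.92, 12.27, 11.77 and 11.60 after 90/5 for 2 hr, and 12.18, 11.86, 12.61 and 12.05 after 90/5 for 5 hr, for the fast calcium sensor of transmitter release. The groups of Syt1 overlapped, and the difference at 18/1 5 hr was -0.48 (95% interval -1.15 to 0.20), called lower when samples were centred on their medians alone. Syt7 read 8.51, 8.46, 8.67 and 8.27 in the unstimulated samples, 7.98, 8.003, 8.62 and 8.07 after 18/1 for 2 hr, 7.13, 7.25, 7.39 and 7.31 after 18/1 for 5 hr, 8.51, 9.30, 7.65 and 7.30 after 90/5 for 2 hr, and 8.10, 8.34, 8.98 and 8.85 after 90/5 for 5 hr, for a slow sensor with high calcium affinity. At 18/1 5 hr every Syt7 value was below every value of unstimulated, 18/1 2 hr and 90/5 5 hr samples, and the difference from unstimulated samples was -1.21 (SE 0.38, adjusted p = 0.01293), not called without array 1 or 2 (-1.20 and -1.21). Syt3 stood at 10.44, 10.63, 10.29 and 10.46 in the unstimulated samples, 9.97, 10.63, 10.40 and 10.49 after 18/1 for 2 hr, 8.85, 8.70, 9.57 and 9.72 after 18/1 for 5 hr, 10.17, 10.65, 10.02 and 10.22 after 90/5 for 2 hr, and 10.13, 10.57, 10.59 and 10.55 after 90/5 for 5 hr, for a calcium sensor found at the membrane of neurons. Both arrays of 18/1 5 hr were below all other samples for Syt3, array 5 more than array 6, with a difference of -1.24 (SE 0.27, adjusted p = 0.001068) from unstimulated samples. That difference was -0.81 without array 5 and -1.68 without array 6, and it was called in both.

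Syt6, a close relative of Syt3, moved the other way on the probe that was tested. Syt6 gave 12.10, 12.09, 11.37 and 11.77 in the unstimulated samples, 11.29, 11.44, 11.06 and 11.07 after 18/1 for 2 hr, 13.84, 14.61, 13.02 and 13.86 after 18/1 for 5 hr, 10.88, 10.83, 11.51 and 11.94 after 90/5 for 2 hr, and 11.03, 11.06, 11.04 and 11.32 after 90/5 for 5 hr. The lowest of the 18/1 5 hr samples was above the highest sample of any other condition, with a difference of 2.00 (SE 0.33, adjusted p = 9.196e-05) from unstimulated samples. A second, dimmer probe of Syt6 that also passed the filter gave 0.24 (SE 0.35) in the same comparison, so the 2 probes of Syt6 disagreed, and with saturated probes left out Syt6 was not called. The first 30 of 60 bases of each are given here because the call depends on which probe is read, with coordinates in mm9 as the array's annotation gives them. Capitals mark the triplet AGG, which neither holds.
Syt6 probe that was tested (chr3:103439038-103439097): tgtgtcttcccacccctgtcacagcctgga
Syt6 second probe (chr3:103424769-103424828): ctcaccctcacagtgatcaagtgtcgaaat

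Syt10, the other close relative of Syt3 and a calcium sensor for the release of insulin-like growth factor 1 in olfactory neurons, split by array. Syt10 was at 10.17, 10.14, 10.23 and 9.99 in the unstimulated samples, 9.62, 10.11, 10.14 and 9.83 after 18/1 for 2 hr, 10.33, 9.93, 12.08 and 12.57 after 18/1 for 5 hr, 10.83, 10.66, 12.99 and 13.66 after 90/5 for 2 hr, and 9.81, 9.43, 10.17 and 9.94 after 90/5 for 5 hr. Array 6 and array 8 were high, while array 5, of the same condition as array 6, overlapped the unstimulated samples, and array 7, of the same condition as array 8, lay above all of them but below array 8. The difference from unstimulated samples was 1.0997 at 18/1 5 hr (SE 0.60, adjusted p = 0.1401) and 1.91 at 90/5 2 hr (SE 0.60, adjusted p = 0.05593). Syt5, Syt11 and Syt16 were not called at 18/1 5 hr, with differences of 0.17, 0.37 and -0.73, and Syt11 was saturated in 4 of 4 samples there. Centring samples on their medians alone gave a call of Syt16 as lower.

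Of the 2 tested complexins, Cplx2 was called higher at 18/1 5 hr, where 14.9% of all genes were. The call also depended on the probe. Cplx1 measured 15.69, 15.49, 15.85 and 15.22 in the unstimulated samples, 14.93, 15.14, 16.01 and 15.12 after 18/1 for 2 hr, 15.73, 15.51, 15.05 and 14.68 after 18/1 for 5 hr, 15.35, 15.74, 16.22 and 15.88 after 90/5 for 2 hr, and 15.28, 15.50, 15.30 and 15.46 after 90/5 for 5 hr. Samples of Cplx1 overlapped across the conditions, 3 of 4 were saturated at 18/1 5 hr and at 90/5 2 hr, and the measured difference at 18/1 5 hr was -0.32 (95% interval -1.02 to 0.38). Cplx1 was called lower there when samples were centred on their medians alone. Cplx2 read 13.94, 14.43, 13.95 and 14.97 in the unstimulated samples, 13.94, 14.56, 14.20 and 14.36 after 18/1 for 2 hr, 16.45, 16.22, 16.69 and 16.01 after 18/1 for 5 hr, 14.96, 15.19, 15.89 and 15.55 after 90/5 for 2 hr, and 13.65, 14.21, 15.12 and 14.26 after 90/5 for 5 hr. On the brightest of its probes, all 18/1 5 hr samples of Cplx2 were saturated and above all samples of the other conditions. The measured difference from unstimulated samples was 2.02 (4.06-fold, SE 0.43, adjusted p = 0.0008117), which saturation limits and which holds only for this probe and normalization. With samples centred on their medians alone, this value was 0.49 and not called.

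Of the 5 Cplx2 probes, 4 consist of A and G alone, and 4 were tested. The brightest lies on chromosome 6 in the array's annotation, whereas RefSeq places Cplx2 on chromosome 13. The first 30 of the 60 bases of 3 tested probes are given because the probes differ in both sequence and result. Capitals mark AGG triplets, and coordinates are mm9 as annotated on the array.
Cplx2 probe 1, brightest (chr6:140877310-140877369): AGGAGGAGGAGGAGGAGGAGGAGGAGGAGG
Cplx2 probe 2 (chr5:112438094-112438174): aAGGAGGAGGAGGAGGAGGagaAGGaagag
Cplx2 probe 4 (chr13:54485200-54485259): tccccactttgtatgatgcaaatgctaaga
The differences from unstimulated samples at 18/1 5 hr were 2.02 for the first, 1.08 (SE 0.48) for the second, 0.15 (SE 0.50) for the third and 0.24 (SE 0.59) for the fourth, of whose 60 bases 33 are A or G. The larger differences were those of the 2 probes annotated to other chromosomes than the gene, and the smaller those of the 2 on its own. This look at base composition was chosen after the values were seen. Of all probes on the array, 23 consist of A and G alone, and 15 of them outside Cplx2 were tested. At 18/1 5 hr, 8 of these 15 were called higher, where 14.3% of all probes were, and 0 lower, with a median difference of 1.32 and a range from 0.23 to 2.71, against a median of -0.27 over all 12137 probes tested. At 90/5 5 hr 0 of the 15 were called and their median was -0.33. The part of base composition in the result for Cplx2 was not tested.

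**Figure D2:**
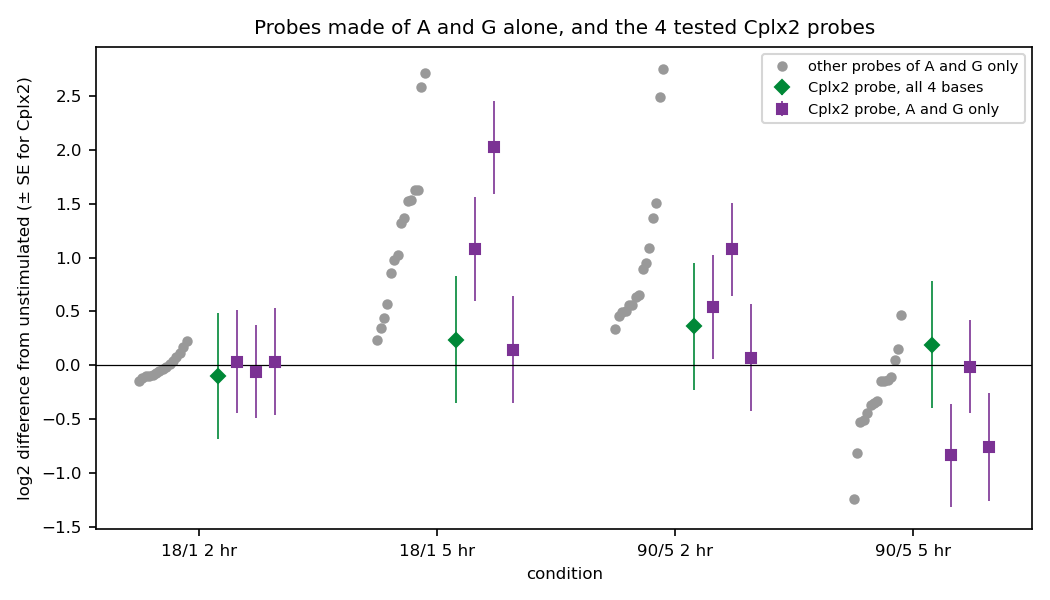
Difference in log2 signal from unstimulated samples (vertical axis) in the 4 stimulated conditions (horizontal axis) for the 15 tested probes made of A and G alone that belong to other genes (grey circles, 1 per probe in rising order), the 3 such probes of Cplx2 (purple squares, ± SE) and the Cplx2 probe that holds all 4 bases (green diamonds, ± SE). At 18/1 5 hr all 15 grey probes lie above 0, where their median is 1.32 and the Cplx2 probe with all 4 bases is at 0.24.

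Among 21 tested of 26 SNAREs of general membrane traffic and their partners, 3 were called higher at 18/1 5 hr (Stx12, Stx18 and Vamp5) and 5 lower (Snap23, Stx3, Stxbp2, Stxbp4 and Stxbp5), which is 38.1% against 44.6% of all genes, with a median difference of 0.04 against -0.23 over all genes. Stx12 stood at 13.22, 12.98, 13.10 and 12.96 in the unstimulated samples, 13.49, 12.94, 13.14 and 13.28 after 18/1 for 2 hr, 14.14, 14.50, 14.25 and 14.42 after 18/1 for 5 hr, 13.39, 13.24, 14.21 and 14.67 after 90/5 for 2 hr, and 13.54, 13.34, 11.41 and 12.26 after 90/5 for 5 hr, for syntaxin 12, a SNARE of recycling endosomes. All 18/1 5 hr samples of Stx12 were above all unstimulated ones (difference 1.27, SE 0.42, adjusted p = 0.01896), array 8 was at the same height, array 10 was the lowest of all arrays, and the call was lost without array 1 or 2 (1.30 and 1.23) and in 3 of 14 other ways of processing. Snap23 gave 12.89, 13.45, 13.12 and 13.32 in the unstimulated samples, 12.71, 13.56, 12.96 and 13.09 after 18/1 for 2 hr, 12.10, 12.70, 11.82 and 12.10 after 18/1 for 5 hr, 10.88, 11.62, 11.78 and 12.37 after 90/5 for 2 hr, and 12.22, 12.71, 12.40 and 12.95 after 90/5 for 5 hr, for the form of Snap25 found in all tissues. Every Snap23 sample at 18/1 5 hr and at 90/5 2 hr was below every unstimulated sample, with differences of -1.01 (SE 0.27, adjusted p = 0.004325) and -1.53 (SE 0.27, adjusted p = 0.001154). Snap23 was the gene called at 90/5 2 hr, and it was called there without each sample and each array in turn.

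Stx18, a SNARE of the endoplasmic reticulum, was at 12.43 to 12.62 in unstimulated samples and 13.43 to 14.13 at 18/1 5 hr (difference 1.23, SE 0.34, adjusted p = 0.00629), and was not called without array 1 or 2 (1.21 and 1.24). Stx3, a syntaxin of apical membranes and ribbon synapses, was at 7.93 to 8.12 and 6.73 to 7.54 (difference -0.82, SE 0.26, adjusted p = 0.01417), with 3 of 4 samples well above background at 18/1 5 hr, and was not called without array 1, 2 or 5 (-0.69 to -0.83). The groups did not overlap for either gene. Vamp5, known from muscle, was at 10.49 to 10.82 and 11.18 to 11.72 (difference 0.75, SE 0.27, adjusted p = 0.0279), a call lost without array 1, 2 or 5, or the Cy3 sample of any of these arrays (0.57 to 0.77), and its direction turned to -0.032 when samples were centred on their medians alone. Differences of the plasma membrane, endosomal and Golgi genes Stx4a, Stx5a, Stx6, Stx7, Stx8, Vamp4, Vamp7 and Vamp8, of Stx11, known from immune cells, and of the autophagosome genes Stx17 and Snap29 ran from -0.24 to 0.53. None of these 11 was called in the main fit. Vamp4 was called higher at 18/1 5 hr with the spot filter applied in at least 1 condition or without the rule on non-uniform spots. All 18/1 5 hr samples of Snap47 lay below the unstimulated ones, and the difference of -0.58 was not called (adjusted p = 0.05206).

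Snap91 was at 13.00, 13.14, 12.94 and 12.73 in the unstimulated samples, 12.09, 12.87, 13.01 and 12.50 after 18/1 for 2 hr, 14.01, 14.50, 14.23 and 14.41 after 18/1 for 5 hr, 11.75, 12.72, 13.68 and 13.96 after 90/5 for 2 hr, and 12.59, 12.94, 10.83 and 12.84 after 90/5 for 5 hr, for AP180, which assembles clathrin on vesicle membrane that is taken back from the terminal. All 18/1 5 hr samples were above all unstimulated ones, array 8 was close to them, and the Cy3 sample of array 10 lay far below the rest. The difference at 18/1 5 hr was 1.33 (SE 0.53, adjusted p = 0.04454), and it was not called in 5 of 14 other ways of processing, without array 1, 2, 5 or 6, or without the Cy5 sample of array 1 or 2 or the Cy3 sample of array 5 or 6 (1.16 to 1.45).

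Of the other calls at 18/1 5 hr, that of Vamp5 was lost in 3 of 15 other ways of processing, the turn of its direction included, those of Vamp1 and Stxbp5 in 2 and that of Syt7 in 1. Spots of Snap91 and Stx12 were saturated in 2 of 4 samples at 18/1 5 hr and those of Syn1 and Syt6 in 1 of 4, which limits their values there.

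**Figure D3:**
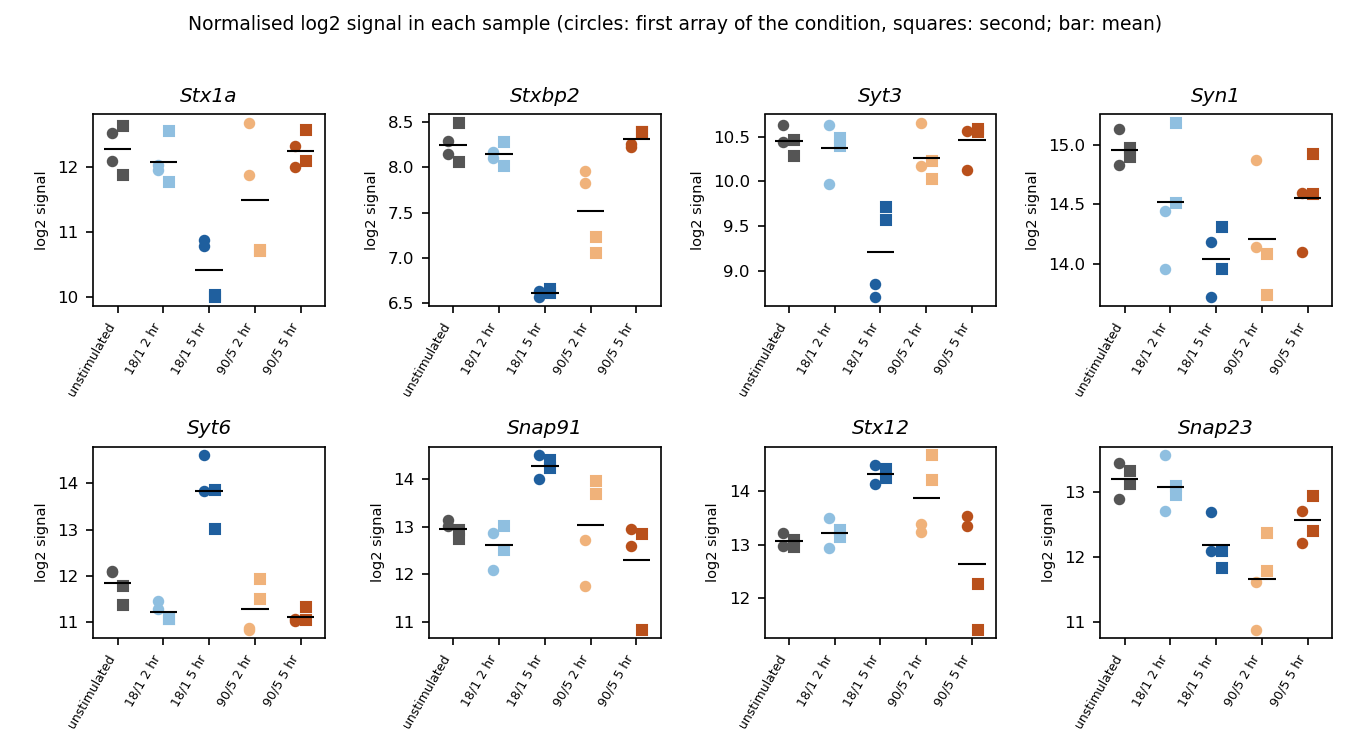
Normalised log2 signal (vertical axes, each gene on its own scale) of 8 genes in the 5 conditions (horizontal axes), 1 symbol per sample, with circles for the lower-numbered and squares for the higher-numbered array of the condition and bars for the mean of 4 samples. By their means, Stx1a, Stxbp2 and Syt3 are lowest at 18/1 5 hr and Syt6, Snap91 and Stx12 highest there, and the circles and squares of 90/5 2 hr lie apart for Stx1a, Stxbp2, Snap91 and Stx12.

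The patterns were set against each other at 5 hr, in samples of slides 3 and 2. There, 17 of 47 genes (36.2%) were called, 11 higher and 6 lower in 90/5, where 45.5% of all genes were called, 29.6% higher and 15.8% lower. With samples centred on their medians alone, 23 were called, and of these only Snap91, Stx12 and Syt6 were lower in 90/5. The 18/1 5 hr samples are the same as in the comparison with unstimulated cultures, so the values of the 2 comparisons are not independent. Syt6 had the largest measured difference of 90/5 from 18/1, at -2.72 (SE 0.33, adjusted p = 3.398e-06), with the 90/5 5 hr samples at 11.03 to 11.32 and the 18/1 5 hr samples at 13.02 to 14.61. It too depended on the probe, with -0.29 for the median probe, and the call was lost in 3 of 15 other ways of processing. Snap91 was lower in 90/5 by a difference of -1.99, Stx12 by -1.69, Stx18 by -0.99 and Stxbp5l by -0.80. Cplx2, saturated in 4 of 4 samples at 18/1 5 hr, was measured 4.09-fold lower in 90/5 (adjusted p = 0.0007136, difference -2.03). Under centring on medians alone it was at -0.30 and not called. Samples of the 2 patterns did not overlap for any of these 6 genes, and Stxbp5l turned to 0.13 under centring on medians alone. Vamp4 was not called in the main fit. It was called lower in 90/5 with no array block, with the filter in at least 1 condition or without the rule on non-uniform spots.

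Higher in 90/5 than in 18/1 at 5 hr were Stx1a by 1.83 (SE 0.42, adjusted p = 0.001611), Syt7 by 1.30, Syn2 by 1.27, Syt3 by 1.25, Stxbp4 by 1.22, Rab3b by 0.91, Vamp1 by 0.73, Snap47 by 0.71, Rab3d by 0.68 and Stx3 by 0.65 on the log2 scale. Stxbp2 was also higher, 3.02-fold over the floor at 18/1 5 hr (adjusted p = 1.314e-05). The Stx3 call was lost in 10 of 15 other ways of processing (0.53 to 0.84 over all 15) that of Vamp1 in 5, that of Stxbp5l in 4, those of Snap47 (down to 0.26) and Stx18 in 3, that of Rab3d in 2 and those of Syt7 and Stxbp2 in 1, and the Syn2 difference was 0.17 and not called under either wider spot filter or without the rule on non-uniform spots. The samples of the patterns overlapped for Vamp1 and Rab3d and were apart for the other 9, so that 15 of the 47 genes did not overlap, against 46.4% of all genes. Syn1, called at 18/1 5 hr against unstimulated samples, differed between the patterns by 0.51 (adjusted p = 0.2324), and Snap23 by 0.39 (adjusted p = 0.2421). Without array 10, 9 genes were called, and the calls of Stx12, Syt7, Stx18, Stx3, Vamp1, Snap47, Rab3d and Stxbp5l were lost, at -0.89, 0.95, -1.05, 0.63, 0.78, 0.73, 0.53 and -0.53. The Stxbp4 call was lost without array 5 (0.66), those of Stx18 and Stx3 also without array 5 or 9, those of Vamp1 and Snap47 also without array 6 or 9 and that of Rab3d also without array 6. Leaving out 1 sample ended the calls of Stx3, Vamp1, Stxbp5l, Rab3d, Snap47 or Stx18 for some samples, at differences from -1.01 to 0.70. The change from 2 hr to 5 hr was itself compared between the patterns, and 15 of the 47 genes were called in that test, where 44.9% of all genes were called.

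At 2 hr, 2 of 47 genes were called between the patterns, where 5.02% of all genes were, and samples did not overlap for 7 of the 47 against 18.5% of all genes. Snap23 was lower in 90/5 than in 18/1, by a difference of -1.42 (SE 0.27, adjusted p = 0.00257), and its samples at 10.88 to 12.37 did not overlap those of 18/1 at 12.71 to 13.56. That call was lost without array 3 or array 4 (-1.36 and -1.47) and in 3 of 15 other ways of processing, median centring among them. Syt10 was higher in 90/5, by 2.11 (SE 0.60, adjusted p = 0.04192), and without array 8 the difference was 0.82. The Syt10 call was lost in 8 of 15 other ways of processing (2.10 to 2.64 over all 15), and it was also lost without array 3 or 4, any 1 of the 18/1 2 hr samples or either sample of array 8 (1.75 to 2.22). Without array 7, 8 genes were called between the patterns at 2 hr in place of 2.

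Within slide 2, 90/5 2 hr was compared with 18/1 5 hr, a comparison in which slide does not differ but both time and pattern do. In it, 4 of 47 genes were called, where 12.9% of all genes were. Syt6 was lower in 90/5 2 hr (difference -2.54, SE 0.33, adjusted p = 0.0007605), and Syt3 (1.06, adjusted p = 0.01768), Stxbp2 (1.74-fold over the floor, adjusted p = 0.01828) and Vamp1 (0.91, adjusted p = 0.02959) were higher. Samples of Syt6, Syt3 and Stxbp2 did not overlap, and those of Vamp1 did. Samples did not overlap for 8 of the 47 genes, against 20.1% of all genes. Leaving out array 5, 6, 7 or 8 gave 2, 10, 1 or 17 calls, respectively. The calls were lost in 5 of 15 other ways of processing for Syt6, 6 for Syt3 and 7 each for Stxbp2 and Vamp1. Syt3 and Stxbp2 were not called without array 5 (0.62 and 0.88) or array 7 (0.91 and 0.53), nor was Vamp1 without array 6 or 7 or the Cy5 sample of array 7 (0.68 to 0.85).

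The 2 arrays of a condition differed more on slide 2 than elsewhere. The median absolute difference between the arrays of a condition over the 47 genes was 0.14 for unstimulated samples, 0.13 for 18/1 2 hr, 0.44 for 18/1 5 hr, 0.43 for 90/5 2 hr and 0.21 for 90/5 5 hr. Differences over 1 were found for 1, 0, 7, 9 and 1 genes, in the same order. At 90/5 2 hr, array 8 exceeded array 7 by 2.58 for Syt10, 1.59 for Snap91 and 1.13 for Stx12, and was below it by 1.56 for Stx1a (difference -1.56) and 1.43 for Syt7 (difference -1.43). Genes that were higher at 18/1 5 hr than in unstimulated samples were mostly those higher on array 8 than on array 7. Across the 47 genes, array 8 minus array 7 correlated with the difference of 18/1 5 hr from unstimulated samples (Pearson's r 0.72, Spearman's rho 0.69; r 0.78 over 10355 genes), measures that share no sample but arrays 5 to 8 share slide 2. The like correlation was -0.31 for the arrays of 18/1 2 hr and -0.19 for those of 90/5 5 hr. Genes are not independent replicates, so these values are a description.

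**Figure D4:**
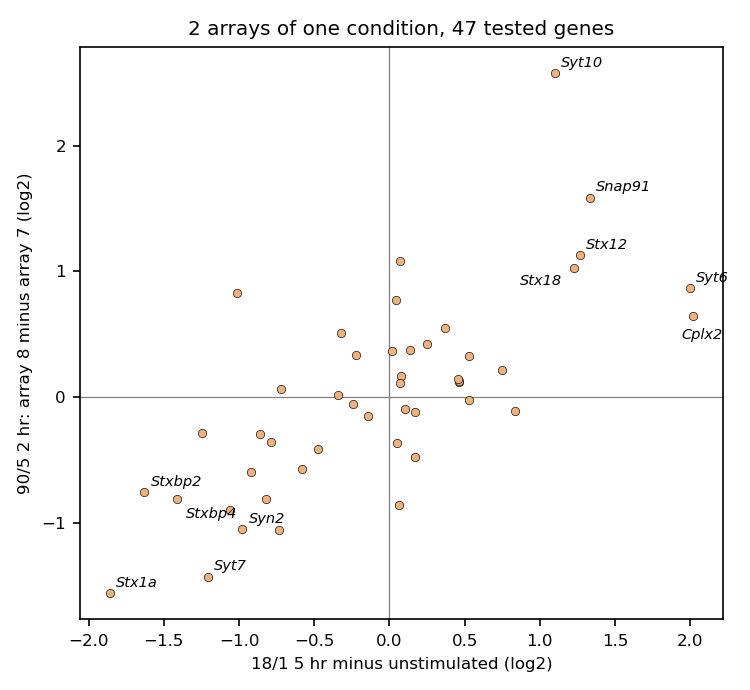
Difference between the 2 arrays of 90/5 2 hr (array 8 minus array 7, log2, vertical axis) against the difference of 18/1 5 hr from unstimulated samples (log2, horizontal axis), 1 circle for each of the 47 tested genes, with 11 labelled. Stx1a and Syt7 lie low on both axes and Snap91, Stx12 and Stx18 high on both, with r 0.72 over the 47 genes.

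The 18 genes that were not tested included several of the best known. Marks for non-uniform spots alone kept out 7 genes, among them Stx2, Stx16, Stxbp6, Syt4, Syt9 and Syt13, and 11 were too dim in at least 1 sample. Of these, 12 could be fitted with the filter applied in at least 1 condition, among 18744 genes. Stx2 measured 11.40, 11.58, 11.41 and 11.20 in the unstimulated samples, 11.23, 11.81, 11.35 and 10.92 after 18/1 for 2 hr, 13.11, 13.87, 12.87 and 13.44 after 18/1 for 5 hr, 11.72, 12.12, 13.22 and 13.71 after 90/5 for 2 hr, and 11.00, 11.02, 11.57 and 11.47 after 90/5 for 5 hr, for a syntaxin of the plasma membrane. Stx2 at 18/1 5 hr was above all unstimulated samples, by 1.93 (SE 0.43, adjusted p = 0.002186), and array 8 was as high. Non-uniform marks on spots of the genes described fell only on arrays 5, 6 and 8. The marked samples of Stx2 were thus among its high ones, and those of Stxbp6 lay on these arrays too. Stxbp6, which encodes amisyn, was called at 18/1 5 hr with a difference of 1.23 (adjusted p = 0.04675) that came from array 5 (9.94 and 10.51), while array 6 (8.39 and 8.11) overlapped the unstimulated samples (7.73 to 8.37). With Syn3, these were the 3 of the 12 genes called at 18/1 5 hr, where 37% of all genes in this fit were. The same 3 were called at 90/5 5 hr against 18/1 5 hr, where 38.2% of all genes in this fit were, with differences of -2.06 for Stx2, -1.31 for Stxbp6 and 2.49 for Syn3. Syn3 was also the 1 gene of the 12 that was called at 90/5 2 hr against 18/1 5 hr (measured difference 1.65, adjusted p = 0.02179), where 8.94% of all genes in this fit were. As Syn3 passed this filter through conditions in which it was bright, its low level at 18/1 5 hr is part of how it was chosen. Its calls against 18/1 5 hr are therefore no separate result, and the sizes of its differences are not settled. Syt2 read 7.21, 7.28, 7.04 and 6.77 in the unstimulated samples, 6.93, 6.9963, 7.22 and 6.80 after 18/1 for 2 hr, 7.28, 7.42, 6.61 and 6.59 after 18/1 for 5 hr, 7.14, 7.07, 6.76 and 6.78 after 90/5 for 2 hr, and 6.86, 7.01, 6.88 and 6.99 after 90/5 for 5 hr. Syt2, the fast calcium sensor of many hindbrain and spinal synapses, was well above background in at most 3 samples of a group. Cplx4, Stx16, Syt4, Syt9, Syt13, Syt15 and Vamp3 were not called in any comparison. Cplx3, Stx19, Syt8, Syt12, Syt14 and Syt17 passed in neither fit, as their spots were above the filter in 1 to 7 of 20 samples.

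The other genes of vesicle release, from lists outside the 9 families, gave shares of calls at 18/1 5 hr that lay on both sides of the 44.6% of all genes. Calls of single genes from these lists were not checked under other ways of processing or without single samples or arrays. Of 22 tested of 34 genes of the active zone and of vesicle priming, 6 were higher and 6 lower (54.5%, median 0.15). Nsf, the ATPase that takes spent SNARE complexes apart, was higher by 1.91 (SE 0.43, adjusted p = 0.00139), and Apba1, which encodes the Munc18 partner Mint1, by 1.23 (SE 0.37, adjusted p = 0.0107). Rph3a, which encodes the Rab3 effector rabphilin, was lower (difference -1.57, SE 0.27, adjusted p = 0.0001211), as was Bsn (difference -1.50, SE 0.37, adjusted p = 0.002617), which encodes the active zone scaffold bassoon. Of 12 tested of 19 genes of the vesicle membrane, 1 was higher and 4 lower, with Slc17a8, the vesicular glutamate transporter 3, at -2.40 (SE 0.46, adjusted p = 0.0003497) and Sypl, a relative of synaptophysin, at 1.99 (SE 0.43, adjusted p = 0.0008966).

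Of 16 tested of 20 genes of vesicle endocytosis, 6 were higher and 3 lower at 18/1 5 hr (56.2%, against 44.6% of all genes, 14.9% higher and 29.7% lower). The clathrin light chain gene Cltb was higher by 1.99 (SE 0.31, adjusted p = 5.193e-05) and the scaffold gene Itsn1 by 1.46 (SE 0.42, adjusted p = 0.008083), and Sh3gl1, which encodes an endophilin, was lower (difference -2.53, SE 0.28, adjusted p = 2.229e-06). At 90/5 2 hr, 4 of these 16 were called, against 7.03% of all genes, Cltb, Itsn1 and Bin1 higher and Sh3gl1 lower, by 1.19, 1.59, 1.17 and -1.27. Of 7 tested of 12 other SNAREs of internal membranes, 1 was higher and 3 lower at 18/1 5 hr, against the same shares of all genes, with Vti1b at 1.14 and Bet1l at -1.73. At 18/1 2 hr and at 90/5 5 hr, 0 genes of these 4 lists were called.

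Promoter windows from RefSeq (GRCm38.p6, 250 bases before to 50 after each start) were found for 50 of the 65 genes, with 66 windows, and were searched on both strands for 6 motifs that were chosen with the results known. The sequences show where 2 of the motifs, CRE and the left part of RE1, lie before Syn1, called lower at 18/1 5 hr. They also show where the NRF1 motif lies before Stx12 and Stxbp5, which were called in opposite directions there. Capitals mark the motif, read 5′ to 3′ on the gene's strand.
Syn1, CRE (chrX:20921060-20921087, minus strand): aaaggctgacTGACGTCActcactagcc
Syn1, left part of RE1 (chrX:20921132-20921160, minus strand): cactgtcggaTTCAGCACCgcggtcagag
Stx12, NRF1 (chr4:132884505-132884534, minus strand): ggcggagcgcGCGCATGCGCaccgcgatgg
Stxbp5, NRF1 (chr10:9901220-9901249, minus strand): gggcggcggcGCGCATGCGCaccgggcagc
The cyclic AMP response element TGACGTCA was found in 1.79% of all 32851 windows and, of the genes here, before Syn1, where its bases lie 159 to 152 before the start. The left part of the RE1 element, TTCAGCACC, was in 0.371% of all windows and again before Syn1. The NRF1 motif, searched as the 10 letters in capitals above, was in 0.971% of all windows, and in those of Stx12, Stxbp5 and Snap23. The EGR motif GCGNGGGCG was in 5.55% of all windows and in 7 of the 66 (10.6%), those of Cplx1, Stx2, Stxbp5, Stxbp5l, Syn2, Syt16 and Vamp4. The serum response element (0.0639% of all windows) and the NF-kB motif (0.155%), each searched as 1 fixed run of 10 letters, were in 0 of the 66. A match says only that these letters are in the window.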

How the data were processed

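The authors deposited, for each array, the mean intensity of every spot and the median intensity of its background in both colours, on a linear scale and not normalized, together with marks for spots that were saturated, uneven or well above background, which were used as deposited. Spots were extracted with Agilent Feature Extraction 10.7.1.1 (slide 1) and 10.7.3.1 (slides 2 and 3), and annotated to mm9. For each array, 72 further columns specific to a colour were not used. Under R 4.3.3, with limma (3.58.1) and version 1.17.8 of data.table, background was subtracted by normexp with an offset of 50, colours were normalized within arrays by loess with control spots at weight 0, and arrays were scaled by Aquantile. A spot passed where its signal reached 2 times the background and it was not marked as non-uniform, in all 20 samples. Spots of a probe were averaged and the brightest probe stood for a gene name. All samples were fitted together with limma, with the condition and the colour as terms and the array as a random block (correlation 0.529), and p was adjusted by Benjamini-Hochberg within each comparison over 10355 genes. Genes not passing were read from a fit of genes that passed in the 4 samples of any 1 condition. A bound was set where a gene was saturated or not well above background in all samples of a group. For dim genes the floor was each sample's lowest signal well above background on the spot of any gene. Folds from such bounds hold only for the probe and normalization used. Precision is limited by having 2 arrays per condition. The fit was tested on simulated data. Figures were drawn in Python 3.11.15 with matplotlib 3.10.9.

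The genes and all lists, motifs and tests were chosen with earlier results of these data known. Values in every sample are given for the tested genes of the release machinery and for the up to 4 called genes with the largest rise and the up to 4 with the largest fall in each comparison, and for others where the text turns on them. The alternatives were no background subtraction, quantile normalization, median centring, wider or no spot filters, leaving out saturated probes, the median probe of a gene, no array block, means of arrays, only the conditions compared, slide 2 left out, array weights, a trend on GC content removed, the methods' t-test with and without Benjamini-Hochberg adjustment, a replicate block, and dropping 1 sample or 1 array at a time. The background rule without the mark for non-uniform spots was added after the data were seen. For 18/1 5 hr and 90/5 2 hr the labels do not settle which replicate carried which colour, so array and colour serve as sample names. Deviations of unstimulated and 18/1 2 hr samples with the same replicate number correlated by 0.13 or more in each of 4 pairs. Such samples also share colour and slide, and samples of different numbers were not compared. Whether the numbers pair cultures was therefore not tested. The authors' normalized values were not used here, and no reference genome of the build mm9 was used. Some single genes and 1 probe sequence are not reported here.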

Additional observations from a re-analysis of the deposited data

Results flagged for a closer look

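The 4 values of a condition were examined for a sample far from the other 3 in the 24 genes with values given for every sample or chosen by the size of their change, which makes 120 groups. In 6 groups a sample stood further out than the 95% limit of Dixon's test, and chance alone gives about 1 in 20 groups. At 90/5 5 hr, the Cy3 sample of array 10 was at 15.67 for Rab3a (others 15.33 to 15.39), at 10.83 for Snap91 (others 12.59 to 12.94) and at 15.68 for Vamp2 (others 15.02 to 15.13). In the same condition the Cy3 sample of array 9 was at 10.13 for Syt3 (others 10.55 to 10.59) and the Cy5 sample of array 10 at 11.32 for Syt6 (others 11.03 to 11.06). At 18/1 2 hr, the Cy3 sample of array 4 was at 8.62 for Syt7 (others 7.98 to 8.07). Of the 6 groups, 5 thus lay at 90/5 5 hr and 3 of them turned on 1 sample.

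The change from 2 hr to 5 hr under 90/5 differed from that under 18/1 in 11 of these 24 genes, tested as an interaction in limma with adjustment over all genes, where 44.9% of all genes were called. Part of the 24 were chosen for the size of their change in these samples, so their share is not set against that of all genes, and of all 47 tested genes 15 were called. On the log2 scale, the change under 90/5 minus that under 18/1 was -3.51 for Syt10 (adjusted p = 0.00217), -2.79 for Syt6 (adjusted p = 7.753e-05), -2.40 for Snap91 (adjusted p = 0.01243) and -2.35 for Stx12 (adjusted p = 0.00315). It was 2.41 for Stx1a (adjusted p = 0.00271), 2.05 for Stxbp4 (adjusted p = 0.0007699), 1.81 for Snap23 (adjusted p = 0.0006758), 1.36 for Syn2 (adjusted p = 0.02587) and 1.35 for Syt3 (adjusted p = 0.006928). Measured values were -3.16 for Cplx2 (adjusted p = 0.000303), saturated in 4 of 4 samples at 18/1 5 hr, and 2.32 for Stxbp2 (adjusted p = 1.488e-05), well above background in 0 of 4 samples there, so the sizes for these genes are not settled. The conditions of this test lie on 3 slides, and slide and change cannot be told apart.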

How the results depend on the processing

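With 2 arrays per condition, and slides that differ with the condition, calls rest on few arrays, and Stxbp2, dim at 18/1 5 hr, and Cplx2, saturated there, have only bounds. At 18/1 5 hr against unstimulated samples and at 90/5 5 hr against 18/1 5 hr, 12 to 23 genes were called under every alternative run, in place of 18 and 17. Centring on medians alone moved the median of all genes from -0.23 to -0.81 and from 0.23 to 0.93 in these comparisons. It gave 2 genes higher and 16 lower, and 20 higher and 3 lower. Of the genes called without it, it turned Vamp5 to -0.032 and Stxbp5l to 0.13. It also called Rab3a lower at 18/1 5 hr, and Rab3a and Stx6 higher in 90/5 than in 18/1 at 5 hr. These calls run against the directions that the 2 genes had without it. Leaving out each sample gave 15 to 19 and 12 to 19 calls, and each array 7 to 17 and 9 to 18. At 18/1 2 hr, 0 genes were called (0 to 0 without a sample or an array), 6 with array weights and 1 by the methods' t-test. At 90/5 2 hr against unstimulated samples, 1 was called (1 to 4 without a sample, 1 to 13 without an array), 2 with no background subtraction, with the GC trend removed, with only the conditions compared or with the background rule alone, 3 with median centring, 6 with array weights, 8 with no array block, 7 by the methods' t-test and 0 after its adjustment. At 90/5 5 hr, 0 were called (0 to 0 in leave-one-out), 10 with array weights, 3 by the methods' t-test and 4 with slide 2 left out. Between the patterns at 2 hr, 2 were called (1 to 2 without a sample, 0 to 8 without an array), 1 under either wider filter, with saturated probes left out, with only the conditions compared or with the background rule alone, 0 with means of arrays, 7 with no array block, 6 by the methods' t-test and 0 after its adjustment. Between 90/5 2 hr and 18/1 5 hr, 4 were called (3 to 6 without a sample, 1 to 17 without an array), 17 (16 higher) with median centring, 2 with the filter in at least 1 condition, with array weights or with the background rule alone, 0 with means of arrays or only the conditions compared, 16 with no array block, 9 by the methods' t-test and 0 after its adjustment. The cause was not tested. With the median probe of each gene, Syt6 was at 0.24 at 18/1 5 hr and not called, nor was Cplx2. Of 42 calls of single genes, 7 were made under every alternative and leave-one-out.

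The replicate number as a block could be fitted only for unstimulated, 18/1 2 hr and 90/5 5 hr samples, where the labels tie each colour to a replicate, and 0 and 4 genes were then called, as with slide 2 left out. The deviations of same-numbered samples correlated by 0.13 to 0.56 between unstimulated and 18/1 2 hr samples, where 0 genes were called with and without the block. In pairs with 90/5 5 hr they correlated by -0.34 to 0.54. Same-numbered samples share a colour and samples of different numbers were not compared, so whether the numbers pair cultures was not tested.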
